A study of Rattus norvegicus with 14 samples.

Results

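The comparison set 3 rat lines derived from blastocysts, Fi1, Fi2 and Wk8, against the rat mesenchymal line RClone-2. Its members were chosen by the tissue labels: arrays A and B of each of these 4 lines, 8 of the 14 arrays and 4 of the 7 lines in the series. Fi1 is labelled as male and Fischer, Fi2 as female and Fischer, Wk8 as female and Wistar-Kyoto, and RClone-2 as male and Fischer. The title of the series places the lines in a culture condition for multipotent adult progenitor cells and names hypoblast features of the derived cells. The labels do not say how the mesenchymal line was grown, at which passage any line was sampled, or whether arrays A and B came from separate cultures, so the line was the replicate and p-values measure the spread between lines. The 3 bone marrow lines of the series, CL19, 3C3 and RMAPC-1, are all labelled Fischer, the first as female and the others as male. They entered the fit for the spread between lines and are quoted only beside single genes.

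The hypoblast, or primitive endoderm, is the epithelium that forms on the inner cell mass before implantation. GATA and SOX transcription factors specify it, it answers to FGF and PDGF signals, and its descendants are the visceral endoderm, a transporting epithelium of the yolk sac, and the parietal endoderm, which secretes a thick basement membrane. Mesenchymal stromal cells are not epithelial. They secrete fibrillar collagens, crosslink and remodel them, and release chemokines and growth factors.

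Levels are log2 signals relative to the 75th percentile of the same array and can be compared between lines for a gene but not between genes. Of 41012 probes, 62.7% to 68.0% were well above background on the blastocyst arrays and 63.5% and 66.1% on the mesenchymal arrays, and no spot was saturated. Across genes, which are not independent replicates, Pearson's r was 0.992 to 0.994 within a blastocyst line, 0.973 to 0.990 between blastocyst lines, and 0.796 to 0.803 between blastocyst and mesenchymal arrays. The Y-linked gene Eif2s3y stood at 1.71 in Fi1 and 1.65 in RClone-2, against -8.57 in Fi2 and -8.53 in Wk8, which follows the sex labels of these 4 lines. Of the bone marrow lines, 3C3 is labelled male but stood at -8.12, near CL19 at -8.26, so its sex label goes against this gene, and RMAPC-1 lay between at -2.48. Without 3C3, 5125 genes were higher and 5963 lower by the test described next. The blastocyst arrays lay on slides 1 and 3 and the mesenchymal arrays on slides 2 and 4, so that these lines shared no slide. With 1 mesenchymal line, the spread came from the 3 blastocyst and 3 bone marrow lines, and the mesenchymal line was assumed to vary like them, and the precision rests on how many lines there are.

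The test was passed by a large share of all genes. Of 24853 genes kept, 12115 had a limma adjusted p under 0.05 for blastocyst against mesenchymal (48.7%), of which 5550 were higher in the blastocyst lines (22.3%) and 6565 lower (26.4%). Past the threshold and over 2-fold were 8910 genes (35.9%), and past the threshold and over 64-fold were 629 higher (2.53%) and 503 lower (2.02%). A further view comes from detection: 2265 genes were above background on blastocyst arrays only, and 967 on mesenchymal arrays only. Of these, 757 and 52 did not pass the test. A gene counted when 1 or more arrays of a group were above background. With 6 blastocyst and 2 mesenchymal arrays, these counts are not on equal terms. The median difference of all genes was -0.10. It was 0.35 without scaling, with 8538 genes higher and 3998 lower, and -0.74 when arrays were scaled by the spiked-in transcripts, with 2967 higher and 10953 lower, so each direction is relative to the chosen percentile. A term for the pair of slides left 2938 higher and 3255 lower. It was estimated through the bone marrow lines, CL19 on slides 1 and 3 against 3C3 and RMAPC-1 on slides 2 and 4. A slide effect therefore cannot be told apart from differences between these lines. Of the 247 genes named in these texts that passed, 37 no longer did with the term, among them Afp, Amn, Ihh, Vcam1, Snai1, Zeb1, Cav1, Cav2, Cdk6, Wnt5a and Ezh2. Sizes also depend on the probe: of 81 named genes with several probes kept, another probe of the gene gave a difference more than 1.5 times away in 51, over 4 log2 units away in 17 and of the opposite sign in 4 (Dio3, Hnf4a, Igf1 and Nkx6-2). The 17 were Col1a1, Dio3, Gli1, Grem1, Igf1, Il1rl1, Kit, Lin28a, Lox, Mmp2, Ndn, Nkx6-2, Rsad2, S100a4, Slc2a10, Sox7 and Tek.

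**Figure D1:**
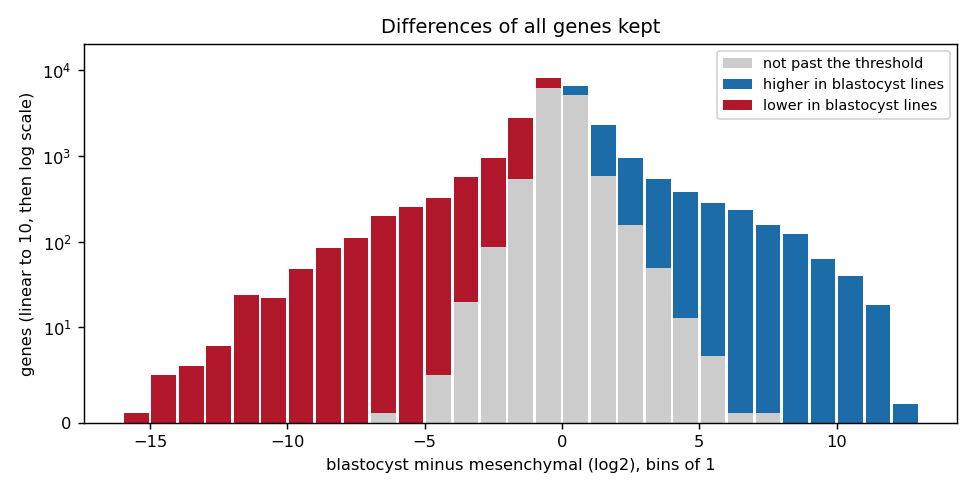
Distribution of the blastocyst minus mesenchymal difference (log2, x axis, bins of 1) over the 24853 genes kept, with the number of genes on the y axis, linear up to 10 and logarithmic above. Grey marks genes not past the threshold, blue the 5550 higher and red the 6565 lower genes; the lower side reaches past -15 and the higher side past 12.

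The label of the blastocyst lines was set against cell type markers. Of 11 hypoblast markers 10 were tested and 9 were higher in the blastocyst lines than in RClone-2, and their mean log2 level was 3.04 to 3.54 on the blastocyst arrays and -4.27 to -4.06 on the mesenchymal arrays. Gata6, a zinc finger factor of the primitive endoderm, stood at 4.60 in Fi1, 4.35 in Fi2 and 4.50 in Wk8 against -3.04 in RClone-2, a difference of 7.52 ± 0.18 (SE, 3 lines against 1). Its partner Gata4 stood at 4.89 in Fi1, 4.89 in Fi2 and 4.72 in Wk8 against -1.53. The range over the blastocyst lines was 0.25 for Gata6 and 0.17 for Gata4, and RClone-2 lay far below both. Dab2, an endocytic adaptor, was the tested marker that did not pass: 2.21 in Fi1, 2.53 in Fi2 and 0.81 in Wk8 against 0.87, with Fi1 and Fi2 above the mesenchymal line and Wk8 at its level. Without Wk8 it passed as higher (limma adjusted p = 0.0211).

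Mesenchymal markers went the other way: 14 of the 15 tested were lower in the blastocyst lines, and 7 of the 15 were not above background on any blastocyst array. Their mean level was -5.86 to -5.19 on the blastocyst arrays and 1.82 to 2.32 on the mesenchymal arrays. Thy1, a surface glycoprotein used to identify stromal cells, stood at -8.37 in Fi1, -8.15 in Fi2 and -7.58 in Wk8 against -1.20 in RClone-2 and was at least 85.0-fold lower. Vcam1, a cell adhesion molecule, was the exception, at 1.52 in Fi1, 0.22 in Fi2 and 0.18 in Wk8 against -2.37, 8.07-fold higher (limma adjusted p = 0.0112). It was also 3.54 ± 0.46 higher in the blastocyst than in the bone marrow lines (limma adjusted p = 0.00724).

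Markers of other cell types gave a mixed picture. Of 13 endothelial markers tested, 8 were higher in the blastocyst lines, led by Vwf (at least 119-fold), the clotting factor carrier, Pecam1 (at least 35.9-fold), Esam (at least 27.9-fold) and the receptors Tek (at least 29.9-fold) and Tie1 (at least 22.8-fold). The 2 that were lower were Egfl7, a secreted endothelial factor (-1.65 ± 0.20), and Nos3, the endothelial nitric oxide synthase (-1.88 ± 0.19). The endothelial cadherin Cdh5 stood at -4.73 in Fi1, -4.87 in Fi2 and -4.66 in Wk8 against -4.55, and did not pass, nor did Sox18 at -0.60 ± 0.23. The mean level of the list was -2.68 to -2.18 on the blastocyst and -5.67 to -5.32 on the mesenchymal arrays. Of 11 haematopoietic markers 5 were higher (45.5%) and 2 lower (18.2%), against 22.3% and 26.4% of all genes. Among the higher were the erythroid factors Gata1 (at least 112-fold) and Klf1 (43.3-fold), and the lower were the lysosomal membrane gene Laptm5 (-0.73 ± 0.21) and the endotoxin coreceptor gene Cd14 (-5.06 ± 0.25). The call of Laptm5 was lost without Fi1 or Fi2 (limma adjusted p = 0.0627 and 0.0525). The pan-leukocyte gene Ptprc was kept in no line. Of 8 trophoblast markers tested, 2 were higher and 2 lower, close to the shares over all genes. Eomes, a T-box factor, was at least 14.6-fold higher, and Cdx2 did not pass at -0.29 ± 0.36. Whether other cells contributed to these levels was not tested.

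**Figure D2:**
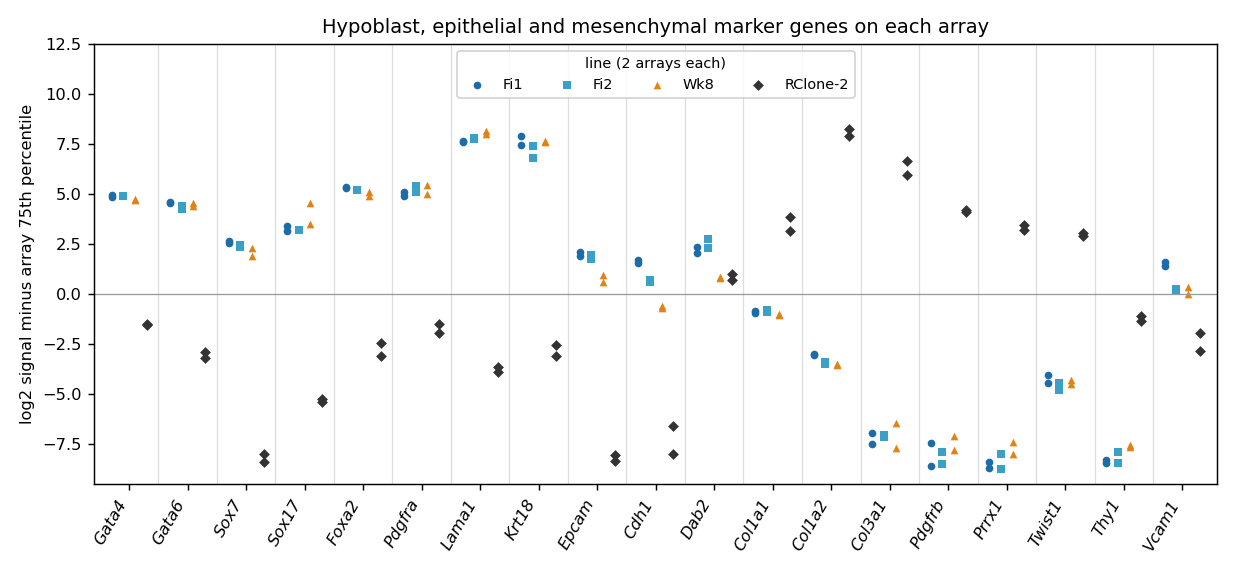
Level of 19 marker genes (x axis) on each array, as log2 signal minus the array's 75th percentile (y axis), with 2 arrays per line for Fi1, Fi2, Wk8 and RClone-2. The mesenchymal diamonds lie below all blastocyst points for the genes from Gata4 to Cdh1 and for Vcam1, above them from Col1a1 to Thy1, and within the blastocyst range or near it for Dab2.

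The 15 largest higher genes came from several functions. Lama1, the laminin alpha chain of the embryonic basement membrane, stood at 7.63 in Fi1, 7.77 in Fi2 and 8.08 in Wk8 against -3.77 and was 3095-fold higher (log2 difference 11.60 ± 0.30, limma adjusted p = 3.38e-06). Its probe lies at chr9:106973476-106973535 of rn4. Pth1r, the receptor for parathyroid hormone-related protein and a known parietal endoderm gene, stood at 6.35 in Fi1, 6.55 in Fi2 and 6.78 in Wk8 against -5.02 and was 3079-fold higher. For both genes the 6 blastocyst arrays lay within about 1 log2 unit of each other and the mesenchymal arrays more than 10 units lower. Most of the other 13 genes were not above background on either mesenchymal array. Rbpms, an RNA-binding protein gene, was at least 1295-fold higher, the endothelial lipase gene Lipg at least 1250.1-fold, the pro-apoptotic BH3 gene Bik at least 1239.9-fold, the immune checkpoint glycoprotein gene Cd200 at least 1035-fold, the adhesion receptor gene Adgrf5 at least 1032-fold and the glucose transporter gene Slc2a10 at least 729-fold. The 3 lines lay close in most of them, but Rhoxl ranged from 2.52 in Fi2 to 5.11 in Wk8 and Myl3, a myosin light chain gene, from 2.53 in Fi1 to 4.43 in Wk8. Nkx6-2, a homeobox gene, was at least 1048-fold higher by its brighter probe, whereas its second probe gave -0.56 ± 0.24 and did not pass. Adgrf5 and Cd200 were also higher in the blastocyst than in the bone marrow lines, by 4.29 ± 0.25 and 1.93 ± 0.27, and Rbpms differed from them by 0.07 ± 0.11 (limma adjusted p = 0.667).

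Promoter windows of the largest genes are shown because the GATA factors Gata4 and Gata6 are among the hypoblast markers that were higher. Whether these factors regulate the genes shown was not tested. The windows are those of RefSeq on GRCr8, 250 bases before to 50 after the annotated start, 5′ to 3′ on the gene's strand, and capitals mark every AGATAA or TGATAA and its reverse complement TTATCT or TTATCA. Of the 15 largest higher genes 9 had a window and 3 of these held the letters, and of the 15 largest lower genes 10 had one and 1 held them. Spp1, the largest lower gene with a window that lacks the letters, stands for the latter.
Cd200 (chr11:68916065-68916364, plus strand): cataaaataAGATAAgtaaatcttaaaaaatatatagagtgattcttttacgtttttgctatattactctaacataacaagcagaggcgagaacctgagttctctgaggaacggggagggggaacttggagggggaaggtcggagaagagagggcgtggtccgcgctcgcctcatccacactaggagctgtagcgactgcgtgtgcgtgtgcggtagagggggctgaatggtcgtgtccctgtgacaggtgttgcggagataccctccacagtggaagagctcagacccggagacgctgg
Lama1 (chr9:115139298-115139597, plus strand): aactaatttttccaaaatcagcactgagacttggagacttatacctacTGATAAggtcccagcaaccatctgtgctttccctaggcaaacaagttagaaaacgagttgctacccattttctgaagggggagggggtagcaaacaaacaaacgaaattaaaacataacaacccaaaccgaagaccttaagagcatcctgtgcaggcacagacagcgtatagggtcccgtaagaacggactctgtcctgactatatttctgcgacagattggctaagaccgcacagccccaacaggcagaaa
Nkx6-2 (chr1:203813073-203813372, minus strand): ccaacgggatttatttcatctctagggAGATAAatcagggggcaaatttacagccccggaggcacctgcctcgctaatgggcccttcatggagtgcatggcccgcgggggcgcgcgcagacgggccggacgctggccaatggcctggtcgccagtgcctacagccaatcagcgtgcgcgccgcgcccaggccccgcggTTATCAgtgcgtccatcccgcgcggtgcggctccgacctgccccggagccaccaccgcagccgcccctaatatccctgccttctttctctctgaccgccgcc
Spp1 (chr14:5619755-5620054, minus strand): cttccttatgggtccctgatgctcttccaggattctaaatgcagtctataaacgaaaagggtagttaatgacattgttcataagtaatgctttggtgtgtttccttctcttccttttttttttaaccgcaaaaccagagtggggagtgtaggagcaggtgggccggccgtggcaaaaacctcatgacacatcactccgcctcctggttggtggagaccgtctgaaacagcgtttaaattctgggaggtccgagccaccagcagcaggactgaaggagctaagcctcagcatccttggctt
The match began 202 bases before the annotated start in Lama1, 241 in Cd200 and 223, for the first of 2, in Nkx6-2. Over all genes with a window the letters were in 10.8% of 2602 higher genes, 11.5% of 2455 lower genes and 10.8% of 5182 genes not past the threshold, and in 18.9% of all 33469 windows of the table. The higher genes therefore held these letters at about the share of the other genes. A match is a stretch of letters and not a bound site.

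The 15 largest lower genes were led by secreted proteins of stromal cells. Ccl2, a chemokine that attracts monocytes, stood at -8.51 in Fi1, -8.47 in Fi2 and -7.88 in Wk8 against 7.11 in RClone-2 (log2 difference -15.39 ± 0.27). It was above background on 1 of 6 blastocyst arrays. Spp1, which encodes osteopontin, was at least 16749-fold lower, Thbs2, a thrombospondin, at least 20782-fold, and the interleukin 33 receptor gene Il1rl1 at least 13696-fold. None of these was above background on any blastocyst array. S100a4, a calcium-binding protein gene used as a fibroblast marker, remained detectable at -4.33 in Fi1, -4.31 in Fi2 and -3.70 in Wk8 against 9.11, 9541-fold lower. Its other probes gave -14.36 ± 0.58 and, for one placed on the opposite strand, -5.01 ± 0.30. Others were the cyclooxygenase Ptgs1 (10144-fold), the guanine deaminase Gda (11151-fold), the glutathione transferase Gsta1 (8377-fold), the secreted factor Lect2 (6185-fold) and the PDGF receptor Pdgfrb (at least 3257-fold). The 3 blastocyst lines lay close to each other in most of these genes, and Gsta1, Col6a1 and Arhgap22 had 1 line that stood apart.

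The list of primitive endoderm factors holds receptors and the adaptor gene Dab2 beside transcription factors. Of 18 members tested 13 were higher (72.2%) and 2 lower (11.1%), against 22.3% and 26.4% of all genes. The median difference of the list was 6.63 against -0.10 over all genes. Sox7 and Sox17, SOX F factors, stood at 2.60 in Fi1, 2.41 in Fi2 and 2.11 in Wk8, and at 3.29 in Fi1, 3.20 in Fi2 and 4.02 in Wk8, against -8.18 and -5.31 in RClone-2. Sox7 was at least 569.9-fold and Sox17 448-fold higher. Foxa2, a forkhead factor of endoderm, was 248-fold higher (7.95 ± 0.21), and Hhex, a homeobox gene of anterior visceral endoderm, at least 211-fold. Pdgfra, the receptor that marks primitive endoderm, stood at 5.01 in Fi1, 5.23 in Fi2 and 5.24 in Wk8 against -1.72 and was 118-fold higher. Hnf4a, a nuclear receptor of visceral endoderm and liver, was 1 of the 2 lower ones at -0.63 ± 0.16. This rested on the probe at chr3:154464030-154464089 of rn4, while the second Hnf4a probe gave 0.50 ± 0.60 and did not pass. The call was lost without Fi1 (limma adjusted p = 0.0507) and without Fi2 (limma adjusted p = 0.0528). Fgfr2, an FGF receptor, did not pass. It spread from -6.28 in Wk8 to -1.26 in Fi2 around -3.51 in RClone-2, and was at -5.69 ± 1.22 against the bone marrow lines (limma adjusted p = 0.0205).

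Of 32 pluripotency factors 14 were tested, 8 were higher and 1 lower. Of the others, 13, Nanog among them, had no probe under that name, and 5, with Sox2, missed the detection filter in every line. Pou5f1, which encodes Oct4, stood at -0.40 in Fi1, 0.84 in Fi2 and -0.49 in Wk8 and was at least 109-fold higher than in RClone-2, while it was at -2.80 ± 0.39 against the bone marrow lines. The RNA-binding gene Lin28a stood at 6.24 in Fi1, 6.61 in Fi2 and 5.93 in Wk8 against -3.90, 1139-fold higher, and Klf5 at 6.04 in Fi1, 6.16 in Fi2 and 5.96 in Wk8 against 0.84, 37.2-fold higher. Both were near-constant across the 3 lines. The other Lin28a probes gave log2 differences of 3.68, 8.14 and 9.30, all past the threshold, so its fold depends on the probe. Dnmt3l, a cofactor of de novo DNA methylation, was 515-fold higher but lower in Wk8 (0.85) than in Fi1 (3.41) and Fi2 (4.45). Klf4 was lower (-1.36 ± 0.22), and 5 members did not pass.

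Genes of the visceral endoderm and yolk sac were higher in 13 of 25 tested (52%) and lower in 3 (12%). Over all genes 22.3% were higher and 26.4% lower. Apoe, an apolipoprotein, stood at 8.14 in Fi1, 8.21 in Fi2 and 7.69 in Wk8 against -1.38 and was 673-fold higher. The endocytic receptors of this epithelium, Cubn, its partner Amn and Lrp2, were 86.9-fold, 257-fold and at least 94.9-fold higher, and each was lowest in Wk8. Amn, for instance, stood at 3.43 in Fi1, 4.83 in Fi2 and 0.12 in Wk8. Ihh, the hedgehog ligand of visceral endoderm, had the same order, 2.09 in Fi1, 3.53 in Fi2 and -0.42 in Wk8. The plasma protein genes Ttr and Afp were above background in the blastocyst lines, at -2.72 in Fi1, -4.35 in Fi2 and -3.92 in Wk8, and at -3.13 in Fi1, -5.00 in Fi2 and -2.64 in Wk8, and were at least 8.69-fold and at least 9.12-fold higher. Rbp4, the plasma retinol carrier, was lower (-2.06 ± 0.21). The lipoprotein assembly gene Mttp did not pass at 5.14 ± 1.88 and did without Wk8, at 6.75 (limma adjusted p = 0.000108).

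The basement membrane list, which holds parietal endoderm genes, had 12 of 22 members higher (54.5%) and 6 lower (27.3%). Over all genes 22.3% were higher and 26.4% lower, so the share of lower members was near that of all genes. The chains of laminin 111 were all higher: beside Lama1, Lamb1 stood at 7.66 in Fi1, 7.76 in Fi2 and 8.04 in Wk8 against 3.18 (24.9-fold) and Lamc1 at 4.75 in Fi1, 5.06 in Fi2 and 5.42 in Wk8 against 0.61 (22.1-fold). The chains of the common collagen IV network, Col4a1 and Col4a2, were 4.35-fold and 6.74-fold higher, and Col4a3 was at least 20.4-fold. Chains of other laminin trimers were among the lower genes. Lama5 fell by 5.82 on the log2 scale, and Lama3 was at least 22.2-fold lower. Plat, which encodes tissue plasminogen activator, was 70.2-fold higher and differed from the bone marrow lines by 3.24 ± 0.39. Nid1, the nidogen linker, did not pass against RClone-2 (1.38 ± 0.63, and 1.77 with a limma adjusted p of 0.0439 without Fi2), while it was 4.01 ± 0.45 above the bone marrow lines (limma adjusted p = 0.00559).

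Epithelial genes were the largest group that was higher: 34 of 44 tested, with 7 lower and a median of 5.05, or 4.63 when genes at background in one group are set to their bound. In RClone-2, 21 of the 44 were not above background. Desmosomal genes included Dsg2 (991-fold) and Jup (at least 844-fold), the tight junction genes F11r (at least 1209-fold) and Ocln (at least 191-fold), and Myo5b, the motor of apical recycling, was at least 979-fold higher. Cdh1, the epithelial cadherin, stood at 1.62 in Fi1, 0.65 in Fi2 and -0.64 in Wk8 and Epcam at 2.01 in Fi1, 1.86 in Fi2 and 0.79 in Wk8, and both were at background in RClone-2. Wk8 was the lowest line for both. The 3 largest exceptions were Cldn1, a claudin at background in all blastocyst lines and at least 469-fold lower, and the plakin genes Ppl (293-fold lower) and Evpl (18.9-fold lower), which belong to cornifying epithelia. Pkp2 was also lower (9.89-fold), whereas Pkp3 was at least 219-fold higher.

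Intermediate filament genes differed in both directions. The simple epithelial keratins Krt8, Krt18 and Krt19 were 474-fold, 1252-fold and at least 710.2-fold higher. Krt18 stood at 7.68 in Fi1, 7.11 in Fi2 and 7.63 in Wk8 against -2.82. Vim, which encodes vimentin, was lower but above background in all lines, 4.84 in Fi1, 5.23 in Fi2 and 4.05 in Wk8 against 8.73, 16.2-fold lower. Nes, which encodes nestin, was 22.0-fold higher and Synm 75.4-fold lower. Of the list 4 of 14 were higher (28.6%) and 5 lower (35.7%), against 22.3% and 26.4% of all genes.

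Transcription factors of mesenchyme were lower in 17 of 28 tested. Prrx1, a homeobox gene of limb and stromal mesenchyme, was at background in the blastocyst lines (-8.52 in Fi1, -8.36 in Fi2 and -7.69 in Wk8) and stood at 3.35 in RClone-2, at least 1963-fold lower. Tbx18 was at least 334-fold, Zeb2 at least 204-fold, Osr1 186-fold and Twist1 168-fold lower. Among the drivers of epithelial-mesenchymal transition, Snai2 was at least 43.5-fold lower and Zeb1 4.02-fold, whereas Snai1 was 2.59-fold higher (4.20 in Fi1, 3.91 in Fi2 and 4.39 in Wk8 against 2.80). Snai1 and Snai2 thus differed in opposite directions. Tead2, a partner of YAP, was 138-fold higher and Tbx2 3.88-fold.

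HOX genes, which record position along the body axis, were lower in 12 of 20 tested (60%) and higher in 4 (20%). Over all genes 26.4% were lower and 22.3% higher, so the share of higher members was near that of all genes. The lower ones came from all 4 clusters and included Hoxa10 (173-fold), Hoxa9 (at least 59.2-fold), Hoxc11 (96.2-fold) and Hoxc10 (56.8-fold). Hoxa10 stood at -8.18 in Fi1, -7.65 in Fi2 and -6.62 in Wk8 against -0.05. The higher ones included Hoxc12 (3.17 ± 0.57) and Hoxd13 (1.86 ± 0.37) from the posterior end of their clusters. Neither passed with normexp background correction or the slide term, and of the 4 higher HOX calls 0 were left with normexp, 0 with the slide term and 1 with spike-in scaling. Of 7 cofactors tested 2 were higher, with Meis3 at least 302-fold, 1 was lower and 4 did not pass.

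**Figure D3:**
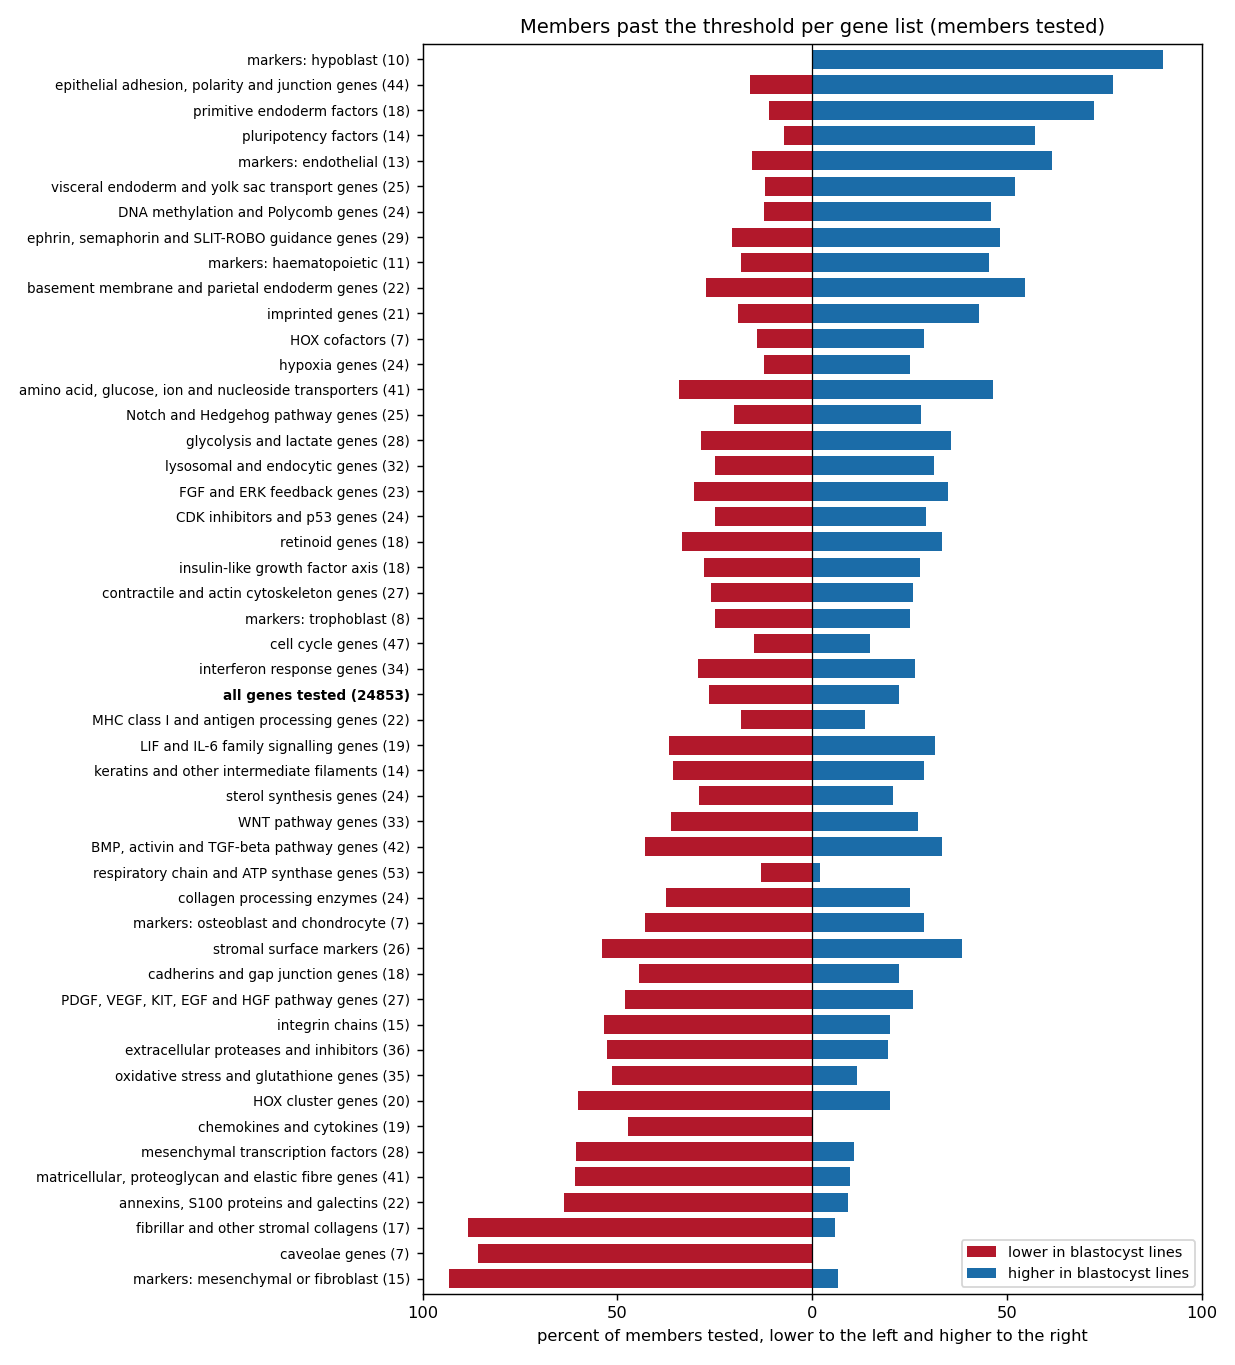
Share of tested members past the threshold for each gene list with at least 7 members tested (y axis, number tested in brackets), as percent lower to the left in red and percent higher to the right in blue. Over all 24853 genes 22.3% were higher and 26.4% lower; hypoblast markers, epithelial genes and primitive endoderm factors stand at the top and mesenchymal markers, caveolae genes and stromal collagens at the bottom.

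Stromal collagens were lower in 15 of 17 tested, with a median of -6.33. Col3a1 and Col5a2, fibrillar chains, were not above background on any blastocyst array and were at least 10654-fold and at least 14475-fold lower. Col1a2 stood at -3.02 in Fi1, -3.45 in Fi2 and -3.53 in Wk8 against 8.07, 2712-fold lower. The brightest Col1a1 probe was 21.5-fold lower, and its other probes gave -6.09 ± 0.15 and -12.76 ± 0.29, so the direction held and the size did not. Col8a2 was the collagen of the list that was higher (at least 2.29-fold). The enzymes that crosslink collagen followed for part of the list: Loxl1 (1589.9-fold), Lox (806-fold) and Loxl3 (165-fold) were lower. The prolyl hydroxylases did not move as one. P4ha3 was at least 221-fold lower, P3h2 85.5-fold higher, and P4ha2 did not pass at 1.12 ± 0.50. Over the 24 enzymes 6 were higher (25%) and 9 lower (37.5%), against 22.3% and 26.4% of all genes. Their median, near 0 here, turned positive without scaling, with quantile normalization and with scaling to detected probes.

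Matricellular, proteoglycan and elastic fibre genes were lower in 25 of 41 and higher in 4. Beside Spp1 and Thbs2 these included Tgfbi (4145-fold), the CCN family gene Ccn4 (1566-fold), Smoc2 (626-fold) and the fibrillin gene Fbn1 (429-fold). Tgfbi was uneven among the blastocyst lines, at -6.93 in Fi1, -3.84 in Fi2 and -5.60 in Wk8 against 6.56. Extracellular proteases and their inhibitors were lower in 19 of 36. The urokinase gene Plau was 143-fold lower and its inhibitor Serpinb2 at least 714-fold, opposite to Plat above. Mmp3, the stromelysin, was at least 233-fold and Mmp2, the gelatinase, 15.4-fold lower.

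Integrins, the matrix receptors, had 3 chains higher (20%) and 8 lower (53.3%) of 15, against 22.3% and 26.4% of all genes. Itgb6, an epithelial chain, was 238-fold higher, Itga2 at least 75.4-fold and the laminin-binding chain Itga7 33.2-fold. Itga3 was 82.2-fold lower, Itgb7 28.8-fold and Itga1 11.1-fold. The common partner Itgb1 did not pass, at 3.51 in Fi1, 3.38 in Fi2 and 3.88 in Wk8 against 4.12. Surface proteins used for stromal cells were lower in 14 of 26 (53.8%) and higher in 10 (38.5%), both above the shares of all genes. Cspg4, also called NG2, was 2922-fold lower and Cd44, the hyaluronan receptor, 70.0-fold, whereas Cd24 was 173-fold and Cd248 at least 121-fold higher. Eng, which encodes endoglin, was 21.4-fold lower.

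Caveolae genes were lower in 6 of 7 tested. Cav1 stood at 0.11 in Fi1, -1.51 in Fi2 and -1.24 in Wk8 against 1.88 (6.78-fold lower) and Cav2 at -1.60 in Fi1, -3.75 in Fi2 and -3.82 in Wk8 against 0.63 (12.9-fold lower). Against the bone marrow lines both were higher, by 4.33 ± 0.42 and 4.72 ± 0.61, so that the blastocyst lines lay between the other groups. Annexins, S100 proteins and galectins were lower in 14 of 22. Lgals1, galectin 1, was 32.1-fold and Anxa1 21.6-fold lower, and Anxa3 was 238-fold higher. The smooth muscle gene Cnn1 (at least 61.2-fold), the myosin light chain gene Myl9 (101-fold) and skeletal actin Acta1 (116-fold) were higher, Tpm2 was 26.6-fold lower, and Tagln did not pass at 2.18 ± 0.92. Contractile genes had 7 members higher (25.9%) and 7 lower (25.9%) of 27, near the 22.3% and 26.4% of all genes. Cadherins other than Cdh1 also split: Cdh17 was 173-fold higher, Cdh13 976-fold lower, and Cdh2, the mesenchymal N-cadherin, did not pass at -1.49 ± 0.75.

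Signalling genes did not move as whole pathways. FGF genes had 8 higher (34.8%) and 7 lower (30.4%) of 23, against 22.3% and 26.4% of all genes. Fgf7, a stromal ligand for epithelia, was at background in the blastocyst lines and at least 359-fold lower, and Fgf8 was at least 30.5-fold higher. The receptor Fgfr3 stood at 1.33 in Fi1, 1.02 in Fi2 and 0.76 in Wk8 against -5.41 (87.5-fold higher), and the coreceptor Klb was at least 196-fold higher. Spry1, a feedback inhibitor induced by FGF signals, was at least 62.0-fold higher, with Wk8 lower (-2.47) than Fi1 (-0.05) and Fi2 (0.04). The ETS factor Etv1 was at least 75.3-fold lower.

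In the PDGF, VEGF, KIT, EGF and HGF group 7 of 27 were higher (25.9%) and 13 lower (48.1%), against 22.3% and 26.4% of all genes. The 2 PDGF receptors were opposed: Pdgfra was 118-fold higher and Pdgfrb at least 3257-fold lower. Kit, the stem cell factor receptor, was at least 34.7-fold and the TAM receptor Mertk at least 193-fold higher. The EGF family ligands Ereg and Tgfa were at least 131-fold and 157-fold lower.

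WNT genes were higher in 9 (27.3%) and lower in 12 (36.4%) of 33, against 22.3% and 26.4% of all genes. Secreted modulators were among the largest: the antagonists Dkk1, Sfrp1 and Dkk3 were at least 271-fold, at least 136-fold and 88.5-fold higher and the agonist Rspo3 at least 269-fold. Dkk1 stood at 1.49 in Fi1, 1.89 in Fi2 and 1.41 in Wk8 against -6.48. The ligand Wnt11 was at least 43.6-fold higher and Wnt5a 697-fold lower. The target genes Axin2 and Lef1 were lower, by -2.84 ± 0.44 and -4.74 ± 0.61. Both calls were lost with normexp background correction (limma adjusted p = 0.424 and 0.256). BMP, activin and TGF-beta genes were lower in 18 (42.9%) and higher in 14 (33.3%) of 42. The BMP antagonist Nog was 145-fold higher, at 1.04 in Fi1, 0.90 in Fi2 and 1.88 in Wk8 against -5.90, and Grem1, another, 55.2-fold lower. Tgfb2 was at background in the blastocyst lines (at least 53.8-fold lower) and Gdf10 was 1052-fold lower. Bmp2 did not pass at -1.17 ± 0.49.

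Of 19 LIF and interleukin 6 family genes 6 were higher (31.6%) and 7 lower (36.8%), against 22.3% and 26.4% of all genes. The receptors of this family were also opposed. Lifr stood at -0.17 in Fi1, 0.26 in Fi2 and -0.05 in Wk8 against -4.02 and was 16.4-fold higher, while Osmr was 10.8-fold and Il6r 291-fold lower. Their shared chain Il6st and the effector Stat3 did not pass, with differences of -0.24 ± 0.43 and 0.18 ± 0.14. Socs3, a feedback inhibitor of this pathway, was 5.29-fold higher, against the bone marrow lines by 1.05 ± 0.21. The insulin-like growth factor axis had 5 higher (27.8%) and 5 lower (27.8%) of 18. In this axis Igfbp3 was at least 1075-fold and the RNA-binding gene Igf2bp1 at least 237-fold higher. The receptor Igf1r stood at -4.05 in Fi1, -4.45 in Fi2 and -3.83 in Wk8 against 2.19, 78.9-fold lower. Igfbp6 was 365-fold lower. Igf1 cannot be given a direction: its brightest probe gave 5.59 ± 0.45 and 2 of its 3 other probes passed in the opposite direction, at -1.61 ± 0.21 and -0.95 ± 0.19.

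Among Notch and Hedgehog genes 7 of 25 were higher and 5 lower, near the shares of all genes. The hedgehog target Gli1 was at least 6.66-fold higher, a call lost with normexp and with the slide term, and another of its probes differed by 4.41 log2 units. Ptch1, of the same list, did not pass at -0.04, while its other probe passed as higher. The Notch ligands Jag1 and Dll1 were at least 15.5-fold and at least 9.02-fold higher, while the modifier Lfng was 25.8-fold lower. Smo, the hedgehog transducer, did not pass at 1.21 ± 0.59. Axon guidance genes were higher in 14 of 29 (48.3%) and lower in 6 (20.7%), against 22.3% and 26.4% of all genes. The ephrin receptors Ephb3, Epha1 and Epha4 were 599.8-fold, at least 81.4-fold and 142-fold higher. Ephb3 stood at 4.28 in Fi1, 4.12 in Fi2 and 4.97 in Wk8 against -4.77. Slit2, a ligand of ROBO receptors, was 555-fold lower.

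**Figure D4:**
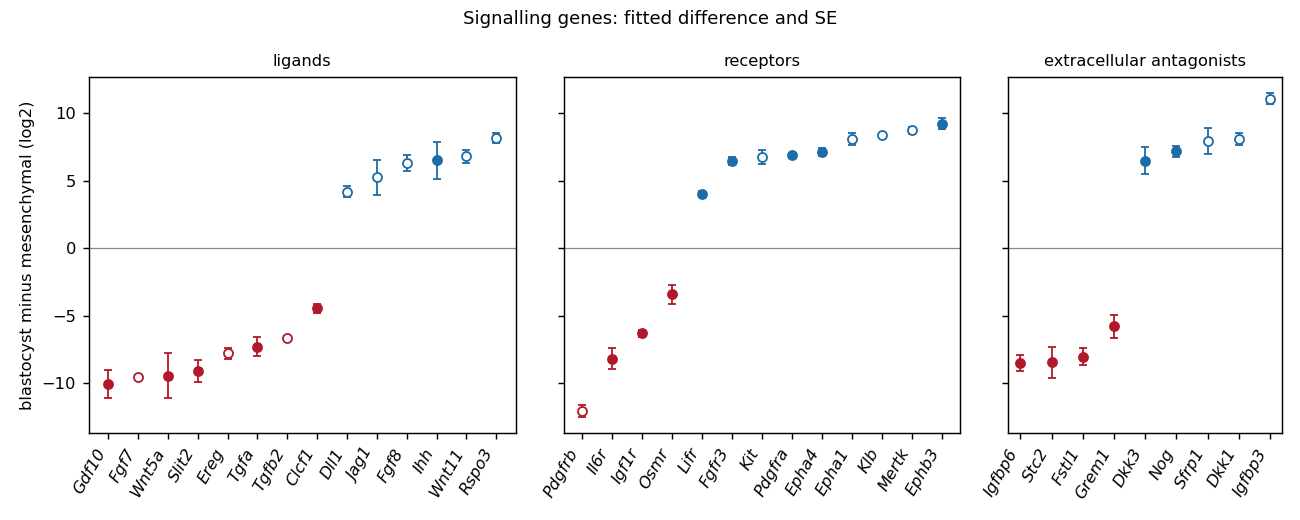
Fitted blastocyst minus mesenchymal difference (log2, y axis) with its SE for 36 signalling genes (x axis), in panels of ligands, receptors and extracellular antagonists. Filled points were above background in both groups and open points in one group only, so that their plotted size rests on a value at background and is no bound; each panel holds genes on both sides of 0.

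Retinoid genes differed in both directions. Stra6, the retinol uptake receptor, stood at -0.22 in Fi1, -0.23 in Fi2 and 1.07 in Wk8 against -8.07 in RClone-2 and was at least 127-fold higher. The retinoic acid-binding proteins Crabp1 and Crabp2 were at least 164-fold and 74.7-fold lower. Of the retinoic acid hydroxylases, Cyp26a1 was 1019-fold higher and highest in Wk8 (6.43), and Cyp26b1 was 29.3-fold lower. The list split evenly, 6 higher (33.3%) and 6 lower (33.3%) of 18, against 22.3% and 26.4% of all genes.

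Of chemokines and cytokines 9 of 19 were lower by limma, 10 did not pass and 0 were higher. At an unadjusted p under 0.05 there was 1 higher, Il6, the interleukin 6 gene (1.86 ± 0.67, limma adjusted p = 0.0631), and the count of higher members was 0 or 1 under the alternatives. Beside Ccl2 the lower ones were Ccl7 (at least 2263-fold), the neutrophil chemokines Cxcl1 (727-fold) and Cxcl3 (460.2-fold), and Csf1, the macrophage growth factor (141-fold). Of 34 interferon response genes 9 were higher (26.5%) and 10 lower (29.4%), near the 22.3% and 26.4% of all genes. Isg15 stood at 3.74 in Fi1, 3.41 in Fi2 and 2.75 in Wk8 against -3.75 (132-fold higher) and Rsad2 was at least 75.5-fold higher, while Ifitm3 was 575-fold and Ifit2 at least 32.2-fold lower. Within the IFITM pair Ifitm1 was 84.9-fold higher, opposite to Ifitm3. Of MHC class I and antigen processing genes 15 of 22 did not pass (3 higher and 4 lower, but 6 and 2 without scaling and 0 and 6 with spike-in scaling), and B2m was 3.7-fold lower.

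Oxidative stress and glutathione genes were lower in 18 of 35 and higher in 4. Sod3, the extracellular superoxide dismutase, stood at -4.24 in Fi1, -4.31 in Fi2 and -3.84 in Wk8 against 7.07 and was 2359.6-fold lower. Gsta3 was 1472-fold and Mgst1 1147-fold lower, whereas Gpx2, an epithelial glutathione peroxidase, and Gsta4 were at least 363-fold and 179.6-fold higher. Array probes of the glutathione transferase family may share sequence with close copies, so single members are uncertain. Nqo1 was 10.1-fold lower and Hmox1 did not pass (-0.57 ± 0.38).

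Transporters were higher in 19 (46.3%) and lower in 14 (34.1%) of 41, against 22.3% and 26.4% of all genes. The lactate exporter Slc16a3 stood at 6.16 in Fi1, 6.97 in Fi2 and 6.64 in Wk8 against -2.97 (755-fold higher), the glutamine transporter Slc38a1 was at least 382-fold and the water channel Aqp8 at least 1303-fold higher, while the water channel Aqp1 was 682-fold lower. Of glycolysis genes 10 were higher (35.7%) and 8 lower (28.6%) of 28, against 22.3% and 26.4% of all genes. These counts were 12 and 3 without scaling and 7 and 12 with spike-in scaling. Hk1, a hexokinase, was 7.0-fold lower. Of respiratory chain genes 45 of 53 did not pass, 1 was higher and 7 were lower. These counts rest on the scaling, with 13 higher and 0 lower without it, and 0 higher and 35 lower with spike-in scaling. In the 75th percentile scaling the largest of the lower ones was Atp5f1d (-0.95 ± 0.20). The median of that list, -0.14, was 0.30 without scaling and 0.08 with quantile normalization. Of 24 sterol synthesis genes 5 were higher (20.8%) and 7 lower (29.2%), near the shares of all genes (8 and 1 without scaling, 0 and 9 with spike-in scaling), with a median of -0.06 that turned positive under the same settings, and the enzyme genes Hmgcs1 and Sqle were 2.54-fold and 2.07-fold lower. Of 32 lysosomal and endocytic genes 10 were higher (31.25%) and 8 lower (25%), against 22.3% and 26.4% of all genes. They were led by the cathepsins Ctsc (at least 602-fold higher) and Ctsz (48.4-fold higher), with Ctsd 6.54-fold lower.

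Most cell cycle genes did not pass, 33 of 47, so fewer passed than the 48.7% of all genes. The counts, 7 higher and 7 lower, were 15 and 4 without scaling and 5 and 14 with spike-in scaling. Among the G1 genes Ccnd1 was 5.97-fold and Cdk6 59.1-fold lower, and Ccne1 and Cdk2 2.97-fold and 2.94-fold higher. Of 24 CDK inhibitors and p53 genes 7 were higher (29.2%), 6 lower (25%) and 11 did not pass, near the shares of all genes. Among the inhibitors, Cdkn1c, an imprinted gene, stood at 8.39 in Fi1, 8.10 in Fi2 and 8.64 in Wk8 against 0.06 and was 319-fold higher. Cdkn2b was 30.4-fold, Cdkn2c 8.47-fold and Cdkn2d 7.21-fold lower. Of 24 hypoxia genes 6 were higher, 3 were lower and 15 did not pass. These counts were 10 higher and 1 lower without scaling, and 4 higher and 9 lower with spike-in scaling. Among the higher ones were the HIF prolyl hydroxylase Egln3 (74.8-fold) and Epas1, which encodes HIF-2 alpha (16.3-fold).

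Imprinted genes, expressed from 1 parental copy and prominent in extraembryonic tissues, were higher in 9 of 21 and lower in 4. Phlda2, a growth-limiting placental gene, stood at 6.24 in Fi1, 6.07 in Fi2 and 6.70 in Wk8 against -4.69, 2083-fold higher. Ndn was at least 2001-fold higher and H19, a noncoding RNA, 241-fold, with 3.30 in Fi1, 4.23 in Fi2 and 1.00 in Wk8 in the 3 lines. Its neighbour Igf2 spread from -3.04 in Wk8 to -0.50 in Fi2 and did not pass at 3.27 ± 1.16, though it did without Wk8 (limma adjusted p = 0.0386) and without CL19 (limma adjusted p = 0.0496). Grb10 was 41.5-fold lower. Dio3 was at least 38.0-fold higher by its brightest probe, while its second probe gave -0.16 ± 0.16 and did not pass. Of DNA methylation and Polycomb genes 11 of 24 were higher and 3 lower. The de novo methyltransferases Dnmt3a and Dnmt3b were at least 6.0-fold and 27.0-fold higher, the oxidase Tet2 8.85-fold higher, and the Polycomb methyltransferase Ezh2 2.16-fold lower. Dnmt3a, Dnmt3b and Dnmt3l were each lowest in Wk8 among the blastocyst lines.

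The 3 blastocyst lines were alike for most genes. The median range over their means was 0.40 on the log2 scale, against median differences between arrays A and B of a line of 0.128 in Fi1, 0.176 in Fi2 and 0.207 in Wk8, and 16.9% of genes ranged over 2-fold. Wk8 stood more than 2-fold from both other lines in 1803 genes, Fi1 in 516 and Fi2 in 569. Wk8 is the only Wistar-Kyoto line, so its strain and the line itself cannot be told apart, and no test was made over single lines. Among genes that passed, the 3 that departed most in Wk8 were Tfec, Cd47 and Wnt5a. Tfec, a transcription factor gene of the MITF family, stood at -0.43, -0.41 and -5.13 in Fi1, Fi2 and Wk8. Cd47, a surface protein that inhibits phagocytosis, stood at -2.18, -2.03 and -6.53, all below 2.85 in RClone-2, a call that was lost without 3C3 (limma adjusted p = 0.0519). The call of Tfec was lost when any line but Wk8 was left out, with adjusted p of 0.056 to 0.0673 by limma. Wnt5a was highest in Wk8, at -4.37 against -8.40 in Fi1. In Fi1 the departing genes included Gsta1 and Lhfpl6, and in Fi2 they were Mageb1, Crisp3 and Stc2. Mageb1 stood at -3.33 in Fi2 and at 0.10 and 0.51 in the others. The G1 kinase gene Cdk6 and Col6a1 were higher in Wk8 (-2.34 and -3.72) than in Fi1 and Fi2, in the direction of the mesenchymal line.

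**Figure D5:**
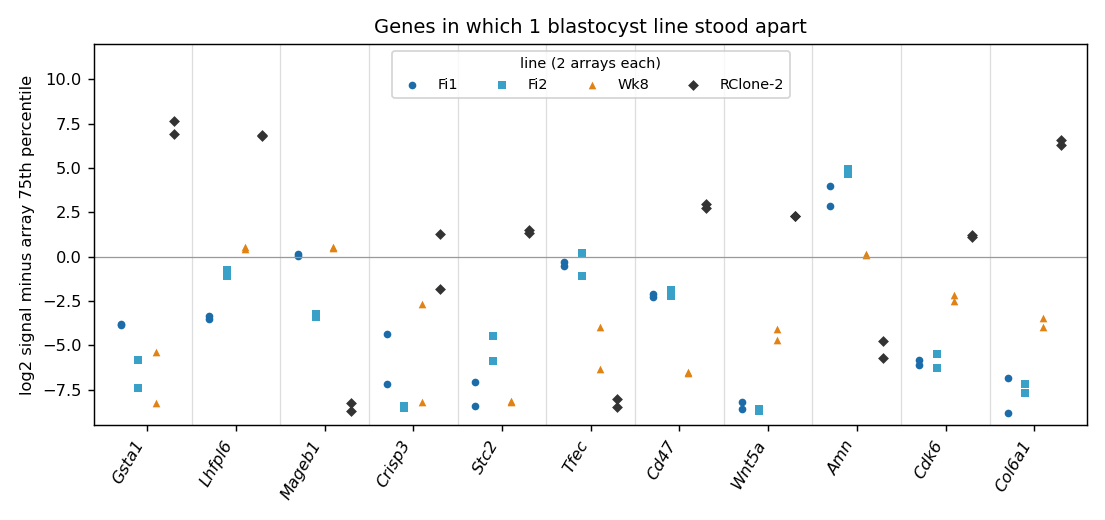
Level of 11 genes (x axis) on each array, as log2 signal minus the array's 75th percentile (y axis), 2 arrays per line. Gsta1 and Lhfpl6 were chosen for Fi1, Mageb1 to Stc2 for Fi2 and Tfec to Wnt5a for Wk8 by the gap to both other blastocyst lines, and Amn, Cdk6 and Col6a1 were added as named above; arrays of one line differ by several units in Crisp3.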

How the data were processed

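RNA of 7 rat cell lines was hybridised to 14 Agilent 1-colour arrays, 2 per line (A and B), which Agilent Feature Extraction 10.7.3.1 read, per the file headers. The deposited intensity values are its processed signals, already background-corrected per the file headers; mean and background intensity values served an alternative. The deposited flags (other values) mark probes well above background and outlier spots. The deposited log2 series table equals the log2 of the processed signal and is unscaled.

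Each array was log2-transformed and its 75th percentile over 43379 spots subtracted, 65 to 193 outlier spots per array were dropped, and spots of a probe and arrays of a line were averaged. The filter kept probes that 1 or more lines had well above background on arrays A and B, and each gene was represented by its brightest probe (24853 genes). Blastocyst minus mesenchymal was tested by limma 3.58.1 in R 4.3.3 on 7 line means, with Benjamini-Hochberg adjustment over all genes kept and a threshold of 0.05. The labels number arrays only by letter and do not say whether letters mark cultures. "At least N-fold" is used wherever the other group had no array above background. It sets a group's mean against the lowest signal of any probe called above background on the other group's arrays. Where the probe's own signal there was higher, that signal was used instead. It is a bound under this processing only: across the alternatives the smallest log2 difference in size was -2.29 for Thy1 and -9.74 for Spp1. "Fold" is 2 to the power of the fitted difference. Of 41012 probes 20777 were named through RefSeq and 20235 kept the name in the files; RefSeq GRCr8 gave names and promoters only, and probe positions are the files' own, on rn4.

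The comparison and the gene lists were chosen with earlier results of these data known. Named genes were the 15 largest differences in each direction among RefSeq-named genes with non-overlapping line means and detection in every line of the higher group, all members of a key list, up to 6 largest members of each list and up to 3 that did not pass, list members needed to describe a list, and the 3 genes departing most in each blastocyst line; Eif2s3y and those of the closing section were chosen otherwise. A few genes the rule names are not reported here. On simulated data with 67, 67 and 66 of 24853 genes changed by 1, 2 and 4 log2 units, limma recovered 2.99%, 77.6% and 92.4% with 9 false calls. The adjustment is stricter there than in the data, where far more genes passed. Alternatives covered background correction, scaling, the dim-probe filter, probe choice, lines and covariates in the fit, and left-out lines and arrays.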

Additional observations from a re-analysis of the deposited data

Results flagged for a closer look

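Genes were looked for that differed in opposite directions in the blastocyst and the bone marrow lines against the same mesenchymal line. A gene chosen in this way has to differ between both line groups, so that difference is given as a description without a test. Of 48 such genes 4 had a RefSeq symbol. Kif21a, a kinesin gene, was 1.62 ± 0.17 higher in the blastocyst lines than in RClone-2, and the blastocyst minus bone marrow difference was 2.47 ± 0.12. Il17ra, the interleukin 17 receptor gene, was 0.90 ± 0.26 above RClone-2, with 1.69 ± 0.18 against the bone marrow lines. Its call against RClone-2 was lost without Fi1 or Wk8 (limma adjusted p = 0.0668 and 0.053). Plekhf1 stood 0.61 ± 0.20 above RClone-2 and 1.27 ± 0.14 above the bone marrow lines, and Pacrgl -0.53 ± 0.17 and -1.10 ± 0.12. For both, leaving out any of the 6 blastocyst and bone marrow lines ended the call against RClone-2, while the 3 blastocyst and 3 bone marrow line means did not overlap. The search for single outlying samples was not made, because the line was the replicate and no group held over 3 lines.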

How the results depend on the processing

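Across 22 alternatives no gene past the threshold passed in the opposite direction. Counts of higher, lower and over 2-fold genes moved by over 1.5 times in at least 1 direction with scaling, background, slide and fold test. They were 8538 higher and 3998 lower without scaling, 2967 higher and 10953 lower with spike-in scaling, 2743 higher, 2757 lower and 4763 over 2-fold with normexp, 2938 higher and 3255 lower with slide pair as a term, and 3285 higher and 3537 lower against a fold of 1.5. Leaving out 1 line gave 4752 to 5736 higher, 5589 to 6676 lower and 8529 to 9307 over 2-fold, and without all A or all B arrays 4364 and 4494 were higher, 4570 and 5239 lower, and 7698 and 8363 over 2-fold. The array letters did not pair the lines: A minus B deviations correlated at -0.24 to 0.18 over 21 pairs of lines, and with the letter as a replicate block 6333 genes were higher, 7212 lower and 9286 over 2-fold. Of 247 named genes that passed, 197 kept their side under all 22 alternatives. The slide term ended the calls of Afp, Amn, Atp5f1d, Cav1, Cav2, Cd47, Cdk6, Col8a2, Crisp3, Ctsd, Cyp26b1, Ezh2, Gli1, Grb10, Hmgcs1, Hnf4a, Hoxc12, Hoxd13, Ihh, Il17ra, Itga1, Jag1, Laptm5, Lgals1, Lhfpl6, Mageb1, Pacrgl, Plekhf1, Ppl, Snai1, Sqle, Tbx2, Tfec, Tpm2, Vcam1, Wnt5a and Zeb1, and normexp those of Axin2, Col8a2, Dll1, Dnmt3a, Gli1, Hnf4a, Hoxc12, Hoxd13, Ifit2, Il17ra, Jag1, Kif21a, Lama3, Laptm5, Lef1, Nos3, Osmr, Pacrgl, Plekhf1, Prl8a9, Rbp4, Tbx2, Tet2 and Tfec. The fit on the blastocyst and mesenchymal lines only had 4362 higher and 5036 lower and ended the calls of Cav1, Cav2, Cd47, Cdk6, Col8a2, Hmgcs1, Hnf4a, Ihh, Jag1, Laptm5, Pacrgl, Plekhf1, Sqle, Tfec and Zeb1. Sex as a covariate, by labels that Eif2s3y does not bear out for 3C3, had 4396 and 4992 and ended those of Cd47, Col8a2, Hmgcs1, Hnf4a, Il17ra, Jag1, Laptm5, Pacrgl, Plekhf1, Sqle and Tfec. The cause was not tested. Signs turned for Cdh5 (0.24 without scaling, 0.012 with normexp), Cdx2 (0.16) and Il6st (0.20) without scaling, Plekhf1 (-0.029) and Stat3 (-0.46) with spike-in scaling, and Fgfr2 (1.26 without Wk8, -1.26 without Fi2, 0.36 without scaling, 0.16 with normexp, 0.32 with sex, 0.60 with the slide term). Depth is not a read count here: genes near background have bounds only.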

Other observations

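Germline and X-linked families stood out when the table was read through. They were chosen after their values were seen, so no test of the families was made. The blastocyst lines had 9 of 11 MAGE family genes tested higher and 1 lower, where 22.3% and 26.4% of all genes were. Many MAGE genes, but not all, are silent outside the germ line and some tumours, and 7 of the 11 were above background on blastocyst arrays only. Magec2 stood at -0.34 in Fi1, -0.98 in Fi2 and 0.54 in Wk8 against -8.43 in RClone-2, at least 91.7-fold higher. Ddx4, the helicase gene known as Vasa, was at least 15.3-fold higher and Piwil2, of the piRNA pathway, 17.0-fold. The X-linked homeobox gene Rhox9 stood at 4.14 in Fi1, 3.47 in Fi2 and 5.17 in Wk8 against -6.74.

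Placental prolactin family genes went the other way: 5 of 6 tested were lower in the blastocyst lines, where 26.4% of all genes were. Prl6a1 stood at -6.73 in Fi1, -7.88 in Fi2 and -8.26 in Wk8 against -0.02 in RClone-2, and Prl8a9 at -7.84 in Fi1, -8.57 in Fi2 and -7.43 in Wk8 against -3.51. Both families hold close copies whose probes may share sequence, so single members are uncertain.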
